A study of Homo sapiens with 9 samples.

Results

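A set of 8 regulators of kidney development was followed in HEK293T cells, an established line grown from human embryonic kidney and carrying SV40 large T antigen. The set was chosen by gene symbol as PAX2, PAX8, WT1, SIX2, EYA1, LHX1, SALL1 and GATA3, and all 8 symbols matched 1 Ensembl identifier each among the 60683 gene identifiers counted. The rule uses no measured value, but the set was proposed with earlier results of these data in view. Total RNA depleted of ribosomal RNA was sequenced from 9 libraries in 3 groups of 3 replicates. The parental cells had no reporter inserted. Clone 15 and clone 37 were each grown from 1 sorted cell after the piggyBac transposon system had inserted a pair of reporters, a NanoLuc luciferase (NLuc) construct preceded by 60 CAG units and a firefly luciferase (FLuc) construct with 0 CAG units, both Myc-tagged. The labels give clone 15 as low and clone 37 as high in expression of both reporters. Each level is thus 1 clone, and a difference between groups cannot be told apart from other differences between single-cell clones. The labels do not say whether replicates were separate cultures, so p-values measure the spread between these libraries, which may be technical.

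These proteins act in the intermediate mesoderm and the tissues it forms. PAX2 and PAX8, paired-box factors, and the LIM-homeobox factor LHX1 establish the nephric duct, and GATA3, a zinc finger factor, guides its growth and supports expression of the receptor RET in it. The duct sends out the ureteric bud, which grows into the metanephric mesenchyme. There SALL1, a zinc finger factor, EYA1, a coactivator that works with SIX2 and its relatives, and the homeobox factor SIX2 keep nephron progenitors, and WT1, a zinc finger factor, is needed in the mesenchyme and later in podocytes. HEK293T cells are adapted to culture, and their kidney origin does not by itself say which of these genes they transcribe.

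Promoters are shown for 4 members, 1 with almost no transcript (PAX8), 1 with the largest change of the 8 (SIX2) and 2 in which an antisense transcript starts inside the window (WT1 and GATA3). The RefSeq promoter table on GRCh38.p14 held 14 windows for 5 of the 8 genes, each with 250 bases before and 50 after a start site. Each sequence runs 5′ to 3′ on the gene's strand, with capitals on matches to any of 5 motifs searched on both strands. The motifs were AGATAA for GATA3 and its relatives, GCGGGGGCG for EGR1 and WT1, TCAGGTTTC for SIX2 and its relatives, TATAAA for the TATA box and CCAAT for the CCAAT box, and none contains another.
SIX2, chr2:45009403-45009702, minus strand: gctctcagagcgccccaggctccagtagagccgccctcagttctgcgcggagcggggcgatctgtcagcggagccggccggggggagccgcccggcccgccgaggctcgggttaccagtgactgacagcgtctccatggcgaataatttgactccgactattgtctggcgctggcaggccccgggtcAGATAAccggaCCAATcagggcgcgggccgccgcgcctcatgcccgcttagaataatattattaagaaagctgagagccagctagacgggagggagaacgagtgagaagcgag
PAX8, chr2:113278872-113279171, minus strand: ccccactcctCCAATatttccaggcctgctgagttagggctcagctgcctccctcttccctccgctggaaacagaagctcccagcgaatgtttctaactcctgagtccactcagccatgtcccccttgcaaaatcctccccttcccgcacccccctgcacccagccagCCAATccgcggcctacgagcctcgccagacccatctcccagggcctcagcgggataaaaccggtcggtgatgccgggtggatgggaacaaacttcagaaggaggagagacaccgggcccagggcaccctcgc
WT1, chr11:32435490-32435789, minus strand: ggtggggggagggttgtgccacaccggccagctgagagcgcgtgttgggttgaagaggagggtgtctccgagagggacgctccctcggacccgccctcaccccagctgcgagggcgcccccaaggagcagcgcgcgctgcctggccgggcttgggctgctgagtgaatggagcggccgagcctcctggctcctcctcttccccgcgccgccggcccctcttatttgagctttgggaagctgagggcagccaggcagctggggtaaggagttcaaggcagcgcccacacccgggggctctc
GATA3, chr10:8053391-8053690, plus strand: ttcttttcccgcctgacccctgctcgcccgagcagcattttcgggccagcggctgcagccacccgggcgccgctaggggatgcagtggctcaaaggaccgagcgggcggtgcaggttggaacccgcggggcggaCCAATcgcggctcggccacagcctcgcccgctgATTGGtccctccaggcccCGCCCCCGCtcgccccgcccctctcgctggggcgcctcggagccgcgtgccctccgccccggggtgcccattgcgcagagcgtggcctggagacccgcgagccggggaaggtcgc
The SIX2 window held 1 AGATAA and 1 CCAAT, the PAX8 window 2 CCAAT, and the GATA3 window 2 CCAAT and 1 GCGGGGGCG, while the WT1 window held none of the 5. Over all 35116 promoters in the table, 10.3% held AGATAA, 5.07% GCGGGGGCG, 0.362% TCAGGTTTC, 11.5% TATAAA and 34.6% CCAAT. A match is not a bound site.

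Counts on the transcript strand summed to 10334090 to 38093340 per library, and the 3 deepest libraries were those of clone 15. Clone 15 was also read at 100 bp and the other groups at 75 bp, so an effect of read length cannot be told apart from clone 15. None of the 75- or 100-base words of the longest transcript of each of the 8 genes occurs in a transcript of another annotated gene. Their other exons and reverse complements were not searched. Parental replicate 2 stood apart, with a chi-square per gene of 10.2 and 10.3 against the other parental libraries, which differed from each other by 1.88. Clone 15 replicate 2 had values of 9.05 and 7.43 against the other clone 15 libraries, which differed from each other by 4.24, and this measure grows with depth. Clone 15 replicate 3 stood apart in a list of 7 fibroblast and stroma markers, whose summed level was 184 CPM (counts scaled to a library total of 1000000) there, 61.3 and 81.3 CPM in the other clone 15 libraries, 52.6 to 55.0 CPM in parental and 21.6 to 22.3 CPM in clone 37. Of that list COL1A2, a collagen chain, had 213, 300 and 1059 counts in clone 15 and 0 in all other libraries. The list did not move as one: in clone 15 against parental 0 of 5 tested markers were called higher and 1, LUM, lower. LUM was at 0.394, 0.772 and 1.45 CPM in clone 15 and 1.73 to 2.41 CPM in parental (log2 fold change -1.43, edgeR adjusted p 0.00271). LUM was too low to be tested between the clones, so it passed the filter on low counts only with parental libraries, where it is highest. The LUM call is thus not independent evidence of a fall. COL3A1 was also below parental (12.4 to 14.5 CPM) in every clone 15 library, at 2.36, 3.05 and 9.49 CPM, and was not called (adjusted p 0.103). In clone 37 against parental all 4 tested markers of the list were called lower, with a median log2 fold change of -1.77, beside 27.3% of all genes called lower. A list of 9 neuronal markers summed to 3400 to 3534 CPM in clone 15, 708 to 911 CPM in parental and 203 to 208 CPM in clone 37, with STMN2 at 0 in parental and ELAVL3 at 0 in clone 15. The neurofilament genes NEFM (2646 to 2810 CPM in clone 15, 475 to 633 in parental) and NEFL (704 to 737 and 213 to 256) made up nearly all of that sum, and they were the 2 of 4 tested markers called higher in clone 15. INA was called lower there (-0.45, adjusted p 0.00252), and 5 of the 9 were under 1 CPM in every clone 15 library. In clone 37 against parental 3 of 4 tested neuronal markers were called lower and 0 higher. Whether the clone 15 cultures held another cell population was not tested, nor was the part of these markers in the results below, so each value of clone 15 describes those cultures as sequenced. Calls of members that are lost without 1 of these 3 libraries are given beside each member, and without clone 15 replicate 2 no member lost its call.

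Most markers of the kidney's finished tubule cells were low or absent. The transporters SLC22A6 and SLC12A1, uromodulin (UMOD) and the water channel AQP2 had 0 counts in all 9 libraries. A mean of at least 1 CPM was reached in parental cells by 2 of 7 proximal tubule markers and 1 of 8 markers of the loop, distal tubule and collecting duct. The proximal tubule list summed to 58.3 to 68.6 CPM in parental and 56.0 to 60.9 CPM in clone 15, and to 28.3 to 32.9 CPM in clone 37, below all other libraries. The part of these markers in the results of clone 37 was not tested. Among 8 adrenal cortex markers only NR0B1 reached it.

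In parental cells 7 of the 8 regulators were transcribed and PAX8 was not detectable above single counts. In RNA from whole cultures, fewer cells that transcribe a gene and less RNA per cell cannot be told apart. Levels were set between genes as RPKM, which is CPM per kilobase of merged exons. SALL1 was highest in parental cells at 12.9 ± 0.275 RPKM (SD, n = 3), above GATA3 at 9.50 ± 0.454 RPKM and SIX2 at 9.26 ± 0.723 RPKM, whose libraries overlapped. LHX1 followed at 2.18 ± 0.227 RPKM, WT1 at 2.09 ± 0.331, PAX2 at 1.44 ± 0.415 and EYA1 at 1.12 ± 0.149, and each of these overlapped the next. The SALL1 mean was above 81.3% of annotated protein-coding genes in RPKM and the EYA1 mean above 42.9%.

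The order was not the same in the clones. In clone 37 it was SALL1 at 15.9 ± 0.919 RPKM, SIX2 at 11.3 ± 0.520, GATA3 at 11.1 ± 0.874, WT1 at 4.55 ± 0.359, LHX1 at 4.34 ± 0.417, PAX2 at 1.43 ± 0.119 and EYA1 at 0.798 ± 0.0600 (SD, n = 3). The libraries of SIX2 and GATA3 overlapped there, as did those of WT1 and LHX1. In clone 15 SIX2 stood at 1.48 ± 0.366 RPKM, overlapping PAX2 at 1.57 ± 0.425, while SALL1 at 9.96 ± 0.624 overlapped GATA3 at 9.56 ± 0.427. WT1 at 2.99 ± 0.0832 RPKM overlapped LHX1 at 2.86 ± 0.109 in clone 15, and EYA1 at 0.891 ± 0.135 lay below PAX2 and SIX2 in every library.

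**Figure D1:**
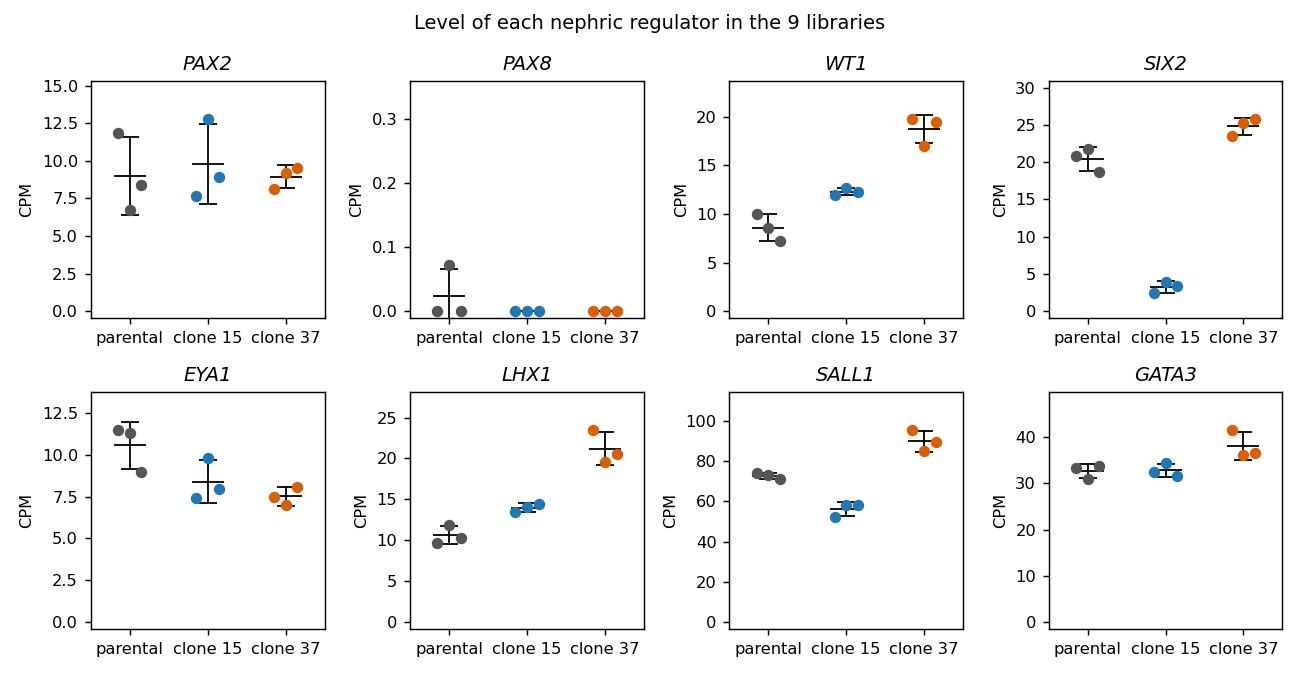
CPM (y axis, linear from 0) of each of the 8 regulators in each library, by group (x axis), where points are libraries, the bar is the mean and whiskers are 1 SD (n = 3). SIX2 lies between 2.39 and 3.98 CPM in clone 15 and above 18 CPM in all other libraries, WT1 and LHX1 step up from parental to clone 15 to clone 37, and PAX8 has 1 count in 1 parental library.

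Changes between groups were tested with edgeR's quasi-likelihood test over all genes, with Benjamini-Hochberg adjustment and a threshold of 0.05. In clone 37 against parental, 6 of 7 tested members were called, 5 higher and 1 lower, beside 54% of 16501 tested genes. The count there was 4 or 5 in every alternative setting. In clone 15 against parental, 5 of 7 were called, 2 higher and 3 lower, beside 51.4% of 17703 genes, and the count was 3 without clone 15 replicate 3, parental replicate 1 or parental replicate 3, and 2 when each gene was tested against its chromosome neighbours. In clone 37 against clone 15, 5 of 7 were called, all 5 higher in clone 37, beside 57.7% of 17712 genes called in either direction, 28.7% higher and 29% lower. Libraries of the 2 groups did not overlap for 6 of the 7 in clone 37 against parental (61.7% of all genes tested), for 4 in clone 15 against parental (59.5%) and for 5 between the clones (63.5%). Calls are common throughout the transcriptome, so being called is not a mark of these 7 genes. The members' median log2 fold change was 0.26 in clone 37 against parental, -0.02 in clone 15 against parental and 0.61 between the clones, beside 0.02, 0.02 and -0.00154 over all genes tested. In each comparison 1 member was called with a 2-fold or larger change, WT1 in clone 37 and SIX2 in the other two comparisons, where 9%, 10.1% and 11.9% of all genes tested had one. Comparisons share libraries, and the test between the clones is the test of whether a member's change from parental differs between them.

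Among the regulators of the nephric duct, PAX2 (ENSG00000075891, chromosome 10, 100735603 to 100829941, plus strand) was called in no comparison. Its level was 11.8, 6.76 and 8.42 CPM in parental replicates 1, 2 and 3, 7.67, 12.8 and 8.90 CPM in clone 15, and 8.13, 9.19 and 9.55 CPM in clone 37. All 3 groups overlapped, and single parental and clone 15 libraries differed more from each other than the groups did. The log2 fold change was -0.01 in clone 37 (adjusted p 0.959, SE 0.17, 95% interval -0.38 to 0.35) and 0.10 in clone 15 (adjusted p 0.711, SE 0.20, interval -0.32 to 0.52). Between the clones it was -0.11 (adjusted p 0.586, SE 0.16, interval -0.44 to 0.22). A missed threshold here does not show equal levels.

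PAX8 (ENSG00000125618, chromosome 2, 113215997 to 113278950, minus strand) had 1 count in parental replicate 2 and 0 in each of the other 8 libraries. The pooled 0 allows at most 0.0369 CPM in clone 15 and 0.0892 CPM in clone 37 by a limit of 3 counts, which covers counting error only. It was too low to be tested. On the opposite strand of PAX8, 4, 16 and 9 counts were found in the pooled parental, clone 15 and clone 37 libraries, which is 0.106, 0.197 and 0.268 CPM, and 9.26% of its exon length lies opposite exons of PAX8-AS1, an antisense RNA with 0.267 ± 0.0462, 0.343 ± 0.270 and 0.332 ± 0.0777 CPM in parental, clone 15 and clone 37 (SD, n = 3). Of the pair PAX2 and PAX8, which overlap in function in the nephric lineage, only PAX2 transcript was thus found beyond a single count.

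LHX1 (ENSG00000273706, chromosome 17, 36936785 to 36944612, plus strand) was lowest in parental cells and highest in clone 37. It was at 9.71, 11.9 and 10.3 CPM in parental, 13.4, 14.1 and 14.5 CPM in clone 15 and 23.5, 19.5 and 20.6 CPM in clone 37. No library of one group overlapped another group. The log2 fold change from parental was 0.96 in clone 37 (adjusted p 2.1e-06, SE 0.12) and 0.35 in clone 15 (adjusted p 0.0275, SE 0.13), and the difference between the clones was 0.61 (adjusted p 8.24e-06, SE 0.10). The clone 15 change lost its call without clone 15 replicate 3 (0.35, adjusted p 0.0578), without parental replicate 1 (0.27, adjusted p 0.166), without parental replicate 3 (0.30, adjusted p 0.118) and in 3 further settings given in the closing part. The transcript that starts divergently beside LHX1, LHX1-DT, was at 5.38 ± 0.615 CPM in parental, 6.85 ± 0.774 CPM in clone 15 and 6.68 ± 1.80 CPM in clone 37 (SD, n = 3) and was called in no comparison (adjusted p 0.124 to 0.918).

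GATA3 (ENSG00000107485, chromosome 10, 8045378 to 8075203, plus strand) moved least of the called members. Its level was 33.3, 30.9 and 33.8 CPM in parental, 32.4, 34.5 and 31.6 CPM in clone 15 and 41.5, 36.2 and 36.5 CPM in clone 37. Clone 37 lay above both other groups in every library, while parental and clone 15 overlapped. The log2 fold change was 0.20 in clone 37 against parental (adjusted p 0.0436, SE 0.08), 0.22 between the clones (adjusted p 0.0174, SE 0.08) and -0.02 in clone 15 against parental (adjusted p 0.879, SE 0.09, 95% interval -0.21 to 0.17). The first of these kept its call in 2 of 16 alternative settings only (it was 0.17 without parental replicate 2, and not called), and the second lost it without clone 15 replicate 3 (0.18, adjusted p 0.0710) or clone 37 replicate 1 (0.16, adjusted p 0.149). GATA3-AS1, whose annotated start lies in the GATA3 window shown above, was at 0.210 ± 0.0228, 0.512 ± 0.122 and 0.499 ± 0.184 CPM in parental, clone 15 and clone 37 (SD, n = 3) and was too low to be tested.

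Among the regulators of the metanephric mesenchyme, SIX2 (ENSG00000170577, chromosome 2, 45005161 to 45009430, minus strand) showed the largest change of the 8 genes. It had 225, 303 and 244 counts in parental, 91, 98 and 64 counts in the deeper clone 15 libraries and 258, 261 and 318 counts in clone 37. As CPM these were 20.8, 21.8 and 18.7 CPM in parental, 2.39, 3.98 and 3.43 CPM in clone 15 and 23.6, 25.3 and 25.7 CPM in clone 37. All 3 clone 15 libraries lay far below the other 6, and clone 37 lay slightly above parental in every library. SIX2 fell in clone 15 with a log2 fold change of -2.71 (adjusted p 1.508e-12, SE 0.17), which is 6.53-fold, and 99.1% of tested genes had a smaller absolute change. Without clone 15 replicate 3 the log2 fold change was -2.73. Between the clones it was 2.97 (adjusted p 6.03e-16, SE 0.14), or 7.84-fold higher in clone 37. In clone 37 against parental it was 0.26 (adjusted p 0.0274, SE 0.09), and it lost its call in 9 of 16 alternative settings, among them without clone 37 replicate 2 (0.25, adjusted p 0.0735) or replicate 3 (0.20, adjusted p 0.173) and without parental replicate 1 (0.26, adjusted p 0.0574) or replicate 3 (0.15, adjusted p 0.246).

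EYA1 (ENSG00000104313, chromosome 8, 71197433 to 71592025, minus strand), the coactivator that partners SIX2 and its relatives, had small changes beside that of SIX2 in clone 15, where both were called lower. It was at 11.5, 11.3 and 8.96 CPM in parental, 7.40, 9.83 and 7.93 CPM in clone 15 and 7.49, 6.97 and 8.10 CPM in clone 37. Clone 37 lay below parental in every library, and clone 15 overlapped both. EYA1 fell in clone 37 with a log2 fold change of -0.51 (adjusted p 0.00655, SE 0.15). In clone 15 it was -0.37 (adjusted p 0.0464, SE 0.15), a call lost without clone 15 replicate 1 (-0.26, adjusted p 0.227) or replicate 3 (-0.32, adjusted p 0.134) and without parental replicate 1 (-0.34, adjusted p 0.118) or replicate 2 (-0.29, adjusted p 0.150). The call was also lost with DESeq2 (adjusted p 0.0743), with no count filter (adjusted p 0.0538), with a filter at 1 CPM (adjusted p 0.0503) and with GC and length trends removed (-0.25, adjusted p 0.194), so 8 of 16 alternative settings ended it and 1 more, the test against its chromosome neighbours, turned its sign (0.12). The clones did not differ by the test (-0.14, adjusted p 0.401, SE 0.14, 95% interval -0.43 to 0.15).

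SALL1 (ENSG00000103449, chromosome 16, 51135975 to 51151367, minus strand) moved in opposite directions in the clones. It was at 74.01, 73.3 and 71.0 CPM in parental, 52.3, 58.4 and 58.4 CPM in clone 15 and 95.5, 85.2 and 89.5 CPM in clone 37. The 3 groups did not overlap, with parental in the middle. SALL1 rose in clone 37 by 0.28 (adjusted p 0.00105, SE 0.06) and fell in clone 15, with a log2 fold change of -0.40 (adjusted p 0.000255, SE 0.08), and the clones differed by 0.68 (adjusted p 5.648e-10, SE 0.07). None of these 3 calls held when SALL1 was tested against the 100 tested genes around it (0.14, adjusted p 0.0903, in clone 37, -0.01, adjusted p 0.928, in clone 15 and 0.13, adjusted p 0.104, between the clones).

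WT1 (ENSG00000184937, chromosome 11, 32387775 to 32435630, minus strand) rose in both clones. It was at 9.99, 8.56 and 7.27 CPM in parental, 11.9, 12.6 and 12.3 CPM in clone 15 and 19.7, 17.0 and 19.4 CPM in clone 37. The 3 groups did not overlap, and their order was that of LHX1. The log2 fold change was 1.11 in clone 37 (adjusted p 1.23e-06, SE 0.13), a 2.15-fold rise, and 0.49 in clone 15 (adjusted p 0.00586, SE 0.14), and the clones differed by 0.62 (adjusted p 1.055e-05, SE 0.10). The clone 15 change lost its call without parental replicate 3 (0.35, adjusted p 0.0747). WT1-AS, the antisense RNA that starts inside the WT1 window shown above, was at 1.07 ± 0.227 CPM in parental, 0.624 ± 0.249 CPM in clone 15 and 1.58 ± 0.525 CPM in clone 37 (SD, n = 3). It was higher in clone 37 than in clone 15 (log2 fold change 1.39, SE 0.37, adjusted p 0.00225) and was not called in clone 37 (0.52, adjusted p 0.215) or clone 15 (-0.86, adjusted p 0.0707) against parental. WT1 exceeded parental in clone 15, while the WT1-AS value there was below parental without passing the test.

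Because the reporter holds a CAG tract, CAG runs in the members' transcripts were counted. SALL1 holds 9 CAG units in a row, at chr16:51141746-51141772 on GRCh38 (minus strand, exon 2 of 3, within the coding sequence of 3 coding transcripts), a length that 40 of 16106 tested genes (0.248%) reach. The run is in capitals here with its flanks.
SALL1 run: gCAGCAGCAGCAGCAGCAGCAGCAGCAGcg
The longest run was 3 units in PAX2 and PAX8 and 2 units in the other 5 members.

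**Figure D2:**
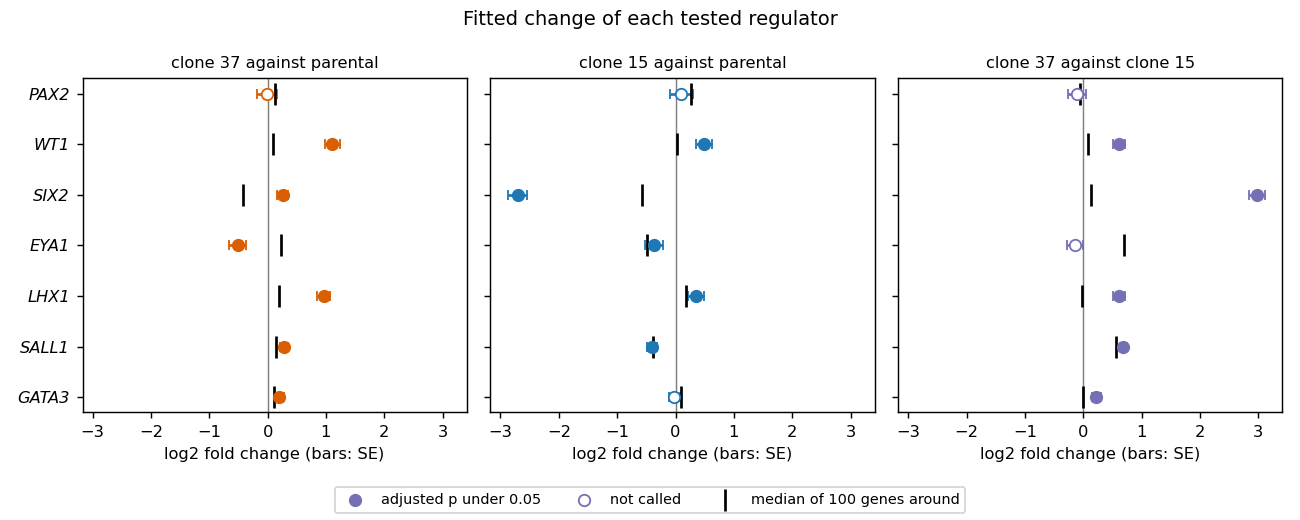
Fitted log2 fold change (x axis, bars 1 SE) of the 7 tested regulators in each of the 3 comparisons, with filled points called at an adjusted p under 0.05, open points not called, and black ticks at the median of the 100 tested genes around each gene. SIX2 stands at -2.71 and 2.97 in the comparisons with clone 15, far from its neighbours, while the SALL1 points lie near their ticks.

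HEK293T cells are aneuploid, and clones of such a line can differ over whole chromosome segments, so each member was set beside the 100 tested genes around it, 50 on either side except for GATA3. GATA3 lies near a chromosome end and had 30 or 35 on the near side and 70 or 65 on the other. Around SIX2 the median log2 fold change was -0.58 in clone 15 and -0.43 in clone 37 against parental, with 73 and 70 of the 100 neighbours called lower. Over all genes tested 26.2% and 27.3% were called lower. SIX2 lay below that neighbourhood in clone 15, where 2 of 100 neighbours had a lower value, and above it in clone 37, where 97 of 100 had a lower value. Against the neighbours' median the change of SIX2 was -2.13 in clone 15 (adjusted p 1.407e-10) and 0.69 in clone 37 (adjusted p 1.348e-05). Tests against neighbours take their median as fixed, so these p-values hold no spread among the neighbours. SIX3, a paralogue of SIX2 that patterns the forebrain and eye and lies 63.3 kb from it, was at 2.42 ± 0.715 CPM in parental (SD, n = 3), 0.334 ± 0.152 in clone 15 (log2 fold change -2.77, adjusted p 1.00e-06) and 0.461 ± 0.278 in clone 37 (-2.41, adjusted p 7.09e-05). SIX3 was too low to be tested between the clones, so it passed the filter on low counts through parental alone, where it is highest, and had to differ.

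Genes around SALL1 were called lower in clone 15 against parental in 56 of 100 cases and higher between the clones in 71. Over all genes tested these shares were 26.2% and 28.7%. The median around SALL1 was 0.15 in clone 37 and -0.39 in clone 15 against parental and 0.56 between the clones, beside 0.28, -0.40 and 0.68 for SALL1. Around EYA1 the neighbours' median between the clones was 0.70, and the gene itself, at -0.14, was not called. Against that median EYA1 was lower in clone 37 than in clone 15 (-0.85, adjusted p 1.404e-05) and lower in clone 37 than in parental (-0.74, adjusted p 0.00048). Of the 100 neighbours, 10 and 13 lay below EYA1 in these comparisons, a spread that the p-values do not hold. Against the neighbours' median EYA1 was 0.12 in clone 15 against parental (adjusted p 0.557). Around WT1 the medians were 0.10, 0.03 and 0.07 and around LHX1 0.20, 0.18 and -0.02 for clone 37, clone 15 and the clones against each other. WT1 kept its calls in all 3 comparisons against these medians (adjusted p 6.36e-06, 0.0113 and 7.612e-05). LHX1 kept its calls in clone 37 (0.76, adjusted p 4.292e-05) and between the clones (0.63, adjusted p 7.148e-06) and lost the call in clone 15 (0.18, adjusted p 0.298). DNA copy number was not measured.

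**Figure D3:**
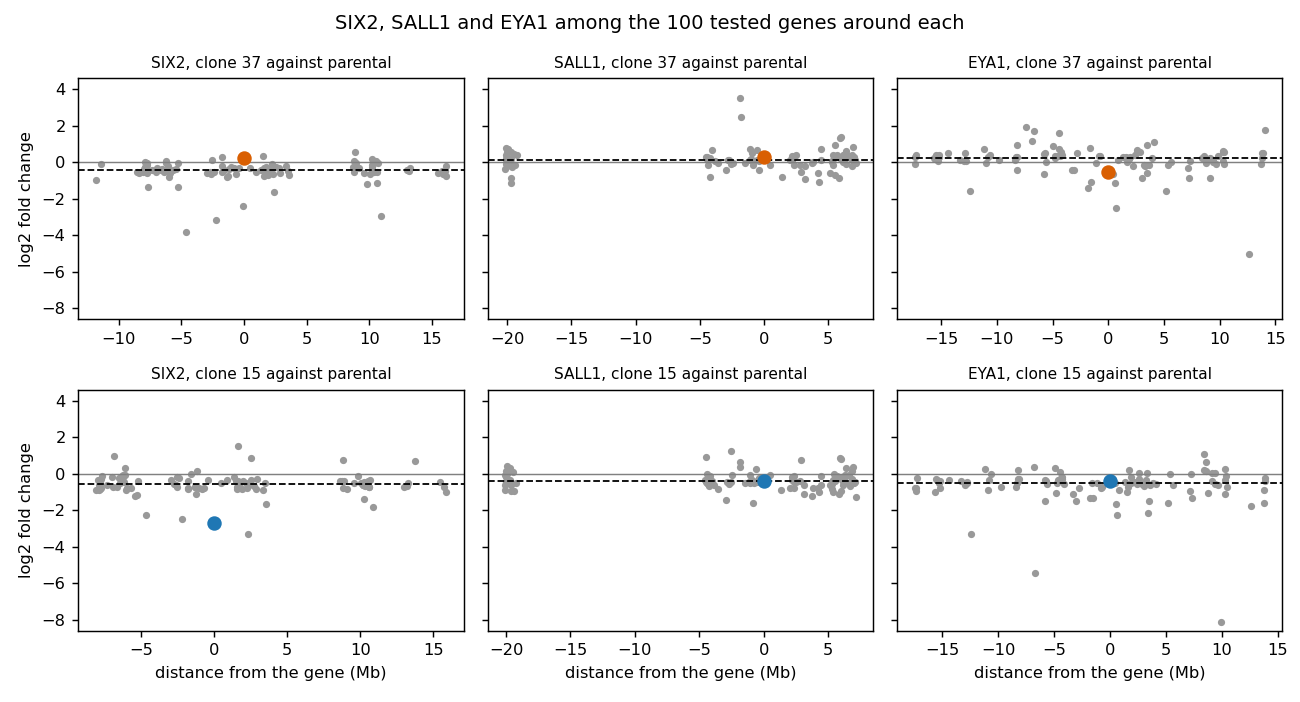
Fitted log2 fold change (y axis) of SIX2, SALL1 and EYA1 (large points, bars 1 SE) and of the 100 tested genes around each (grey), by distance from the gene in Mb (x axis), with the neighbours' median as a dashed line. SIX2 lies below all but 2 neighbours in clone 15, and SALL1 lies close to its neighbours' median in both clones.

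The wider nephric program was described with 7 lists that hold 126 other genes. In clone 37 against parental, calls fell on 61 of 95 tested genes, 21 higher and 40 lower (64.2% called, beside 54% of all genes, 26.7% higher and 27.3% lower). In clone 15 against parental 20 of 97 were higher and 34 lower (55.7%, beside 51.4% of all genes, 25.1% higher and 26.2% lower), and between the clones 28 of 96 were higher in clone 37 and 40 lower (70.8%, beside 57.7% of all genes, 28.7% higher and 29% lower). The median log2 fold changes were -0.15, -0.08 and -0.16. Calls in the lower direction outnumbered those in the higher direction in each comparison in these lists, while over all genes the directions were nearly even, and no test was made of the difference. With 1 library left out at a time, 6 to 8 of the 54 calls in clone 15 against parental were lost, 8 of them without clone 15 replicate 2. In clone 37 against parental 2 to 10 of 61 were lost, 10 without clone 37 replicate 3, 7 without replicate 1 and 6 without replicate 2. Between the clones 1 to 7 of 68 were lost, 7 without clone 37 replicate 2.

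Genes of ureteric bud induction, which carry the signals between mesenchyme and bud, included no call in the higher direction in clone 37 against parental, with 7 of 15 tested genes lower (46.7% called, beside 54% of all genes) and a median of -0.37. ITGA8, the integrin chain of the mesenchyme that bud outgrowth requires, fell from 28.5 ± 1.56 CPM in parental to 3.82 ± 0.317 in clone 37 (log2 fold change -2.93, adjusted p 2.992e-12) and 9.52 ± 0.0282 in clone 15 (-1.61, adjusted p 1.274e-11). FREM1, a basement membrane protein, fell to 1.22 ± 0.285 CPM in clone 37 from 6.98 ± 1.12 (-2.53, adjusted p 1.058e-07), and was at 4.74 ± 1.05 in clone 15 (-0.56, adjusted p 0.0146), a call lost without clone 15 replicate 2 (-0.48) or replicate 3 (-0.42) or parental replicate 3 (-0.48). In clone 15 against parental 3 of 17 were higher and 6 lower (52.9% called, beside 51.4%), among them the guidance receptor ROBO2, at 32.8 ± 0.207 CPM in parental and 13.1 ± 1.10 in clone 15 (-1.35, adjusted p 9.728e-11). ROBO2 also fell in clone 37, to 18.005 ± 1.01 CPM (-0.89, adjusted p 9.59e-08). Its ligand SLIT2 was at 1747 ± 75.1 CPM in clone 15, 779 ± 16.1 in parental and 322 ± 8.22 in clone 37, and it was lower in clone 37 than in clone 15 (-2.44, adjusted p 1.904e-24), where 4 of 17 genes were higher and 7 lower (64.7% called, beside 57.7%). GREM1, a BMP antagonist picked here after its values were seen, was counted 62, 30 and 167 times in the clone 15 libraries, 6, 0 and 7 times in those of parental cells and at most 1 time in those of clone 37. It was highest in the clone 15 library that was also highest in COL1A2, and it was called in neither comparison with clone 15.

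Of the nephron progenitor and mesenchyme list, 2 of 15 tested genes were higher and 8 lower in clone 37 (66.7% called, beside 54% of all genes), with a median of -0.53. DACH1, a partner of SIX-family and EYA-family proteins, fell from 89.5 ± 3.44 to 25.2 ± 0.514 CPM (-1.86, adjusted p 1.002e-12), and the forkhead factor FOXC2 rose from 1.28 ± 0.601 to 3.36 ± 0.575 CPM (1.38, adjusted p 0.00108). In clone 15 DACH1 was at 79.7 ± 3.19 CPM (-0.20, adjusted p 0.0425), a call lost without any 1 clone 15 library (-0.20, -0.18 and -0.15) or parental replicate 2 (-0.15) or replicate 3 (-0.22), and FOXC2 was at 1.95 ± 0.415 CPM and not called (0.60, adjusted p 0.119). In clone 15, 4 of 15 were higher and 4 lower (53.3% called, beside 51.4%), among the former CITED1, a marker of early nephron progenitors, at 4.02 ± 0.106 CPM in parental and 9.25 ± 1.71 in clone 15 (1.15, adjusted p 6.787e-06), and HOXC11, at 11.4 ± 0.823 and 18.9 ± 1.78 CPM (0.71, adjusted p 2.592e-05). HOXC11 fell in clone 37, to 7.49 ± 1.05 CPM (-0.62, adjusted p 0.00119). In clone 37 CITED1 was at 7.92 ± 0.512 CPM (0.95 against parental, adjusted p 7.913e-05). CITED1 thus rose in both clones, while SIX2, which marks progenitors of the same cap mesenchyme, fell in clone 15. Between the clones 1 of 15 was higher and 10 lower in clone 37 (73.3% called, beside 57.7%), HOXC11 by -1.32 (adjusted p 3.129e-10) and DACH1 by -1.66 (adjusted p 2.753e-17).

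The nephron epithelial differentiation list had no call in the higher direction in clone 15, where 7 of 9 tested genes were lower (77.8% called, beside 51.4% of all genes) with a median of -0.46. Between the clones 7 of 9 were higher in clone 37 and 0 lower (77.8%, beside 57.7%), and in clone 37 against parental 3 were higher and 2 lower (55.6%, beside 54%). POU3F3, a factor of the nephron's middle segments, was at 57.7 ± 1.64 CPM in parental, 23.9 ± 3.05 in clone 15 (-1.30, adjusted p 3.9e-11) and 51.8 ± 0.560 in clone 37 (1.12 against clone 15, adjusted p 1.659e-12). Its value of -0.18 in clone 37 against parental (adjusted p 0.0240) lost the call without any 1 clone 37 library (-0.21 to -0.18). KIF26B, a kinesin family member, fell in clone 37 (-1.31, adjusted p 7.007e-07) and clone 15 (-0.93, adjusted p 1.607e-05). FGF9, a growth factor for progenitors, rose in clone 37 from 3.94 ± 0.978 to 5.71 ± 0.764 CPM (0.53, adjusted p 0.0372), a call lost without parental replicate 2 (0.36) or replicate 3 (0.50) and without clone 37 replicate 1 (0.41) or replicate 3 (0.54), and it was not called in clone 15 (-0.08, adjusted p 0.799). EMX2, a homeobox factor of the urogenital system, was higher in clone 37 than in clone 15 (0.99, adjusted p 6.688e-07) and than in parental (0.53, adjusted p 0.00402). In clone 15 against parental EMX2 was -0.46 (adjusted p 0.0291), a call lost without clone 15 replicate 1 (-0.34) or replicate 2 (-0.44) or parental replicate 2 (-0.34). Of the nephric and collecting duct list, 3 of 7 were higher in clone 37 and 4 lower (100% called), with 1 and 4 in clone 15 (71.4%) and 2 and 4 between the clones (85.7%), beside 54%, 51.4% and 57.7% of all genes. E-cadherin (CDH1) fell from 13.2 ± 0.958 CPM to 3.49 ± 0.218 in clone 37 (-1.93, adjusted p 9.81e-09) and 4.17 ± 0.278 in clone 15 (-1.68, adjusted p 1.282e-09). EPCAM, an epithelial adhesion protein, was at 1.68 ± 0.731 CPM in parental, 1.11 ± 0.389 in clone 15 and 0.551 ± 0.227 in clone 37. It was called lower in clone 37 than in parental (-1.61, adjusted p 0.00376) and than in clone 15 (-1.02, adjusted p 0.0354). Against clone 37 in the first of these it passed the filter on low counts through parental alone, where it is highest, and had to differ. The call against clone 15 was lost without clone 15 replicate 1 (-0.64), clone 37 replicate 1 (-0.88) or clone 37 replicate 2 (-0.81), and EPCAM was not called in clone 15 against parental (-0.61, adjusted p 0.153). SOX8 fell in clone 15 (-1.14, adjusted p 1.388e-05) and was higher in clone 37 than in clone 15 (1.74, adjusted p 6.837e-11) and than in parental (0.60, adjusted p 0.00129).

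Among 31 paralogues of the members (relatives of PAX2, SIX2, EYA1, LHX1, SALL1 and GATA3, and EGR1, which shares a DNA motif with WT1), 25 were tested against parental. In clone 37, 4 were higher and 11 lower, and in clone 15, 7 were higher and 8 lower, which is 60.0% called in each, beside 54% and 51.4% of all genes. PAX7, a factor of muscle and neural precursors, fell in clone 37 from 6.65 ± 0.462 to 1.62 ± 0.944 CPM (-2.08, adjusted p 4.45e-06) and in clone 15 to 3.49 ± 0.493 CPM (-0.97, adjusted p 0.000102). PAX1 rose in clone 15 from 0.959 ± 0.402 to 2.501 ± 0.853 CPM (1.32, adjusted p 0.00258) and was not called in clone 37 (0.18, adjusted p 0.708). Between the clones 4 of 24 were higher and 13 lower in clone 37 (70.8% called, beside 57.7%). SALL2 was at 87.4 ± 3.00 CPM in parental, 127 ± 2.23 in clone 15 and 57.4 ± 2.89 in clone 37 (-1.14 between the clones, adjusted p 3.493e-15), so SALL1 was higher in clone 37 than in clone 15 and SALL2 lower. SALL4 was also lower in clone 37 than in clone 15 (-1.41, adjusted p 8.843e-08) and than in parental (-1.39, adjusted p 1.097e-05).

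Of 27 cofactors, 26 were tested. In clone 37 against parental 9 were higher and 11 lower (76.9% called, beside 54% of all genes), with 6 and 8 in clone 15 (53.8%, beside 51.4%) and 9 and 10 between the clones (73.1%, beside 57.7%). TLE4, a Groucho corepressor, was at 194 ± 2.83 CPM in parental, 194 ± 1.77 in clone 15 and 63.0 ± 2.67 in clone 37 (-1.65 against parental, adjusted p 5.437e-13, and -1.62 against clone 15, adjusted p 4.662e-19). TLE2, of the same family, fell in clone 15 from 15.9 ± 2.00 to 7.86 ± 1.40 CPM (-1.04, adjusted p 1.184e-06) and was not called in clone 37 (-0.15, adjusted p 0.292). The coactivator-binding protein CITED2 fell in both clones, from 55.3 ± 3.54 CPM in parental to 36.0 ± 2.81 in clone 15 (-0.65, adjusted p 1.756e-06) and 23.6 ± 1.30 in clone 37 (-1.25, adjusted p 9.558e-10).

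**Figure D4:**
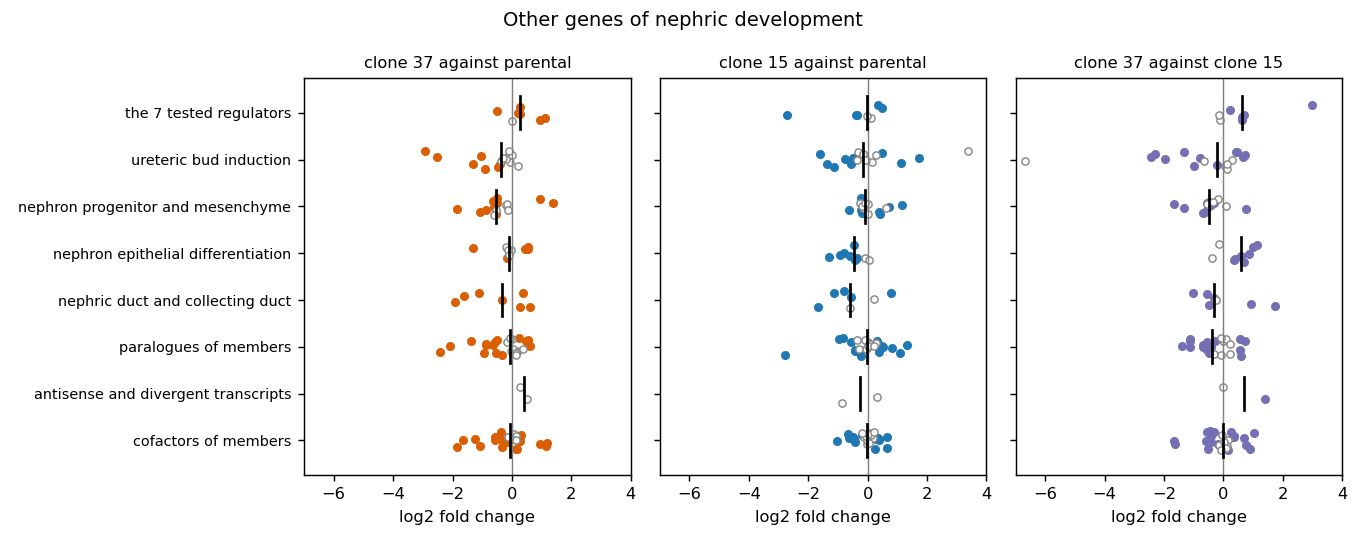
Fitted log2 fold change (x axis) of the 7 tested regulators and of each tested gene in 7 lists of nephric genes, paralogues, antisense transcripts and cofactors (rows), where filled points are called at an adjusted p under 0.05, open points are not, and the black line is the list's median. The ureteric bud list has no filled point above 0 in clone 37 against parental, and the epithelial differentiation list has filled points only below 0 in clone 15 against parental and only above 0 between the clones.

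The genes whose level over the 9 libraries most resembled that of each tested member were ranked by Pearson's r of log2 CPM among 12941 protein-coding genes tested in all 3 comparisons with a mean of at least 1 CPM. These values describe 9 points that share 3 groups, so any gene with the same order of groups scores high. SIX2 was followed most closely by SEZ6L2 (r = 0.994) and SOWAHC (r = 0.993), and 815 genes exceeded 0.9. WT1 was followed by PRDM4 (r = 0.989) and CA8 (r = 0.984), LHX1 by NDRG3 (r = 0.993) and RRS1 (r = 0.989), and SALL1 by FCHSD2 (r = 0.992) and PRKAA1 (r = 0.990), with 330, 455 and 755 genes above 0.9. EYA1 was followed by DSTYK (r = 0.941) and EGLN3 (r = 0.939), and GATA3 by APBA2 (r = 0.949) and SLC10A7 (r = 0.937), with 33 and 18 genes above 0.9. For PAX2 no gene exceeded 0.9, and MLLT6 (r = 0.847) and HOXC9 (r = 0.842) came closest.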

How the data were processed

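RNA-seq was analysed for 9 libraries, 3 each of parental, clone 15 and clone 37 cells. The authors deposited raw counts per gene, 1 file per library. Per the submitters' processing notes, STAR 2.7.10a, FastQC 0.11.9 and hg38 were used, and the annotation release, trimming and filters are not given in the sources used here. Per the labels' protocols, libraries were directional, made from 500 ng of RNA with 13 cycles. The transcript-strand column held 92.6% to 94.0% of stranded counts and was used. The 4 summary entries stayed out of library sizes, and 50.9% to 59.7% of 20015841 to 69405665 read pairs per library were assigned to genes. Multimapping pairs (4.59% to 14.0%) are not counted.

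Positions, exon lengths and transcripts are from GENCODE 29 on GRCh38 and promoters from RefSeq on GRCh38.p14. Each pairwise comparison was fitted on its 6 libraries with edgeR 4.0.16 (filterByExpr, TMM, glmQLFit with robust estimation, glmQLFTest) in R 4.3.3, with Benjamini-Hochberg adjustment over all genes tested and calls at 0.05. A standard error is the log2 fold change over the square root of F, and intervals use the t distribution. The fit was tested on simulated counts. CPM and RPKM are untested descriptions, computed from gene counts without TMM. The members and gene lists were chosen with earlier results of these data known, so neither is independent evidence. Named genes are all members, their antisense or divergent transcripts, the 2 called genes with the largest change per list and comparison at a mean of at least 1 CPM, and the 2 genes most like each member. Cell type markers named as checks, and GREM1, fall outside this rule and were picked after their values were seen. A list of mature podocyte markers is not reported here. Alternatives were RLE size factors, DESeq2 1.42.0, 2 other count filters, a replicate block, unstranded counts, thinning, 1 fit over all 9 libraries, removal of GC and length trends, a test against 100 neighbouring genes, and leaving out each library. The remaining steps ran in Python 3.11.15 (pandas 2.3.3, numpy 2.4.6, matplotlib 3.10.9, scipy 1.17.1).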

Additional observations from a re-analysis of the deposited data

Results flagged for a closer look

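For 5 of the 7 tested members the change from parental differed between the clones by edgeR's test of clone 37 against clone 15. In that test 57.7% of all 17712 genes tested were called, so being called is not a mark of these members. The differences in log2 fold change were 2.97 for SIX2 (adjusted p 6.03e-16), 0.68 for SALL1 (adjusted p 5.648e-10), 0.62 for WT1 (adjusted p 1.055e-05), 0.61 for LHX1 (adjusted p 8.24e-06) and 0.22 for GATA3 (adjusted p 0.0174). SIX2 and SALL1 had changes from parental of opposite sign in the clones, though the SIX2 call in clone 37 was lost in 9 of 16 alternative settings. Against the 100 tested genes around it SALL1 was not called (0.14 for clone 37, -0.01 for clone 15, and 0.13 when the clones were compared). WT1 and LHX1 rose in both, and GATA3 was not called in clone 15.

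Reads on the strand opposite to a member, which entered only the setting with unstranded counts, lay above all parental libraries in every library of a clone, as CPM, in 4 cases with at least 10 pooled counts. Pooled over 3 libraries, LHX1 had 39 such counts in clone 15 (0.479 CPM) and 15 in clone 37 (0.446 CPM) against 7 in parental (0.185 CPM), SALL1 had 26 in clone 15 (0.320 CPM) against 4 (0.106 CPM), and WT1 had 12 in clone 37 (0.357 CPM) against 4 (0.106 CPM). The gene's own strand held 1127, 713, 4520 and 632 counts in the same order, so the opposite strand is a small share in each. WT1 in clone 15 (0.369 CPM) and SALL1 in clone 37 (0.327 CPM) had similar pooled levels without meeting the rule. Over whole libraries the transcript strand held 92.6% to 93.04% of stranded counts in the clones and 93.19% to 93.96% in parental. The opposite strand thus held more in every clone library, and the share of all genes that meet the rule was not computed.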

How the results depend on the processing

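Over 21 fold changes (7 members in 3 comparisons) and 16 alternative settings each, 280 of 336 values kept their direction and side of the threshold, 43 lost the call, 1 gained it and 12 changed sign. No setting moved SIX2 across the threshold in clone 15 (-2.86 to -2.13) or between the clones (2.74 to 3.14), and the same held for WT1 and LHX1 in clone 37 (0.95 to 1.21 and 0.76 to 1.06) and between the clones, and for EYA1 in clone 37 (-0.74 to -0.44). In clone 15 against parental the number of members called fell from 5 to 2 against the 100 neighbouring genes (1 higher, 1 lower) and to 3 with GC and length trends removed, and was 3 to 5 with 1 library left out, being 3 without clone 15 replicate 3, parental replicate 1 or parental replicate 3. In clone 37 against parental the number was 6 in the main fit and 4 or 5 in every alternative setting, and between the clones it was 4 to 5. LHX1 in clone 15 also lost its call with unstranded counts (0.32), against its neighbours (0.18) and with GC and length trends removed (0.25). Of the values that changed sign, only EYA1 in clone 15 had been called, and it was 0.12 against its neighbours. PAX2 was 0.0025 in clone 37 with GC and length trends removed, and in clone 15 it was -0.0128 with thinned counts and -0.17 against its neighbours. GATA3 in clone 15 was 0.0341 with thinned counts. With 1 library left out PAX2 ranged from -0.17 to 0.21 in clone 37, -0.12 to 0.30 in clone 15 and -0.28 to 0.11 between the clones, and GATA3 in clone 15 from -0.0373 to 0.0209. The cause of these shifts was not tested.

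Same-numbered libraries of different groups had correlated deviations of -0.25 to 0.08, so the numbers were not taken to pair them. The replicate block gave 5, 5 and 5 members called and 56, 50 and 71 genes of the other lists (61, 54 and 68 without it), and 1 member changed its call, GATA3 in clone 37 (0.19, adjusted p 0.0666). A zero count in 1 library allows up to 0.0788 to 0.290 CPM, and PAX8 is limited by this depth.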
